A study of Mus musculus with 8 samples.

Results

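Glutamate receptors and their auxiliary subunits were examined as 34 mouse genes, chosen by gene symbol from the 55401 genes of the deposited expression table. They are 4 AMPA receptor genes, 7 NMDA receptor genes, 5 kainate receptor genes, 1 delta receptor gene, 6 metabotropic receptor genes, 8 AMPA receptor auxiliary genes, 2 kainate receptor auxiliary genes and the scaffold gene Dlg4. Glutamate, the main excitatory transmitter of the brain, acts on receptors that are themselves ion channels (the AMPA, NMDA, kainate and delta families) and on metabotropic receptors that signal through G proteins. AMPA receptors carry most of the fast current, NMDA receptors admit calcium and are tied to synaptic maturation and plasticity, and auxiliary subunits set the trafficking and gating of the channels. In the developing hypothalamus these genes are expressed by neurons, and some of them also by astrocytes and by oligodendrocyte precursor cells (OPCs).

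Total RNA of 8 hypothalami taken at postnatal day 19 was sequenced after ribosomal RNA had been removed. The 4 PLX3397 pups received by gavage from day 9 to day 15 the compound PLX3397, an inhibitor of the receptor CSF1R on which microglia depend, and the 4 vehicle pups received the vehicle alone. Each group held 2 females (F1 and F2) and 2 males (M1 and M2). The sources used here name no strain or genotype, and the tissue was collected 4 days after the last gavage, so the values describe that time and not the dosing period. The study asks what the loss of microglia in this window does to the developing hypothalamus.

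The libraries held 55900335 to 67487391 counts in the PLX3397 group and 54115300 to 60001808 in the vehicle group. The summed level of 10 microglia markers was 10.5 to 21.8 FPKM (fragments per kilobase of transcript, scaled by library depth) in PLX3397 libraries and 133 to 142 FPKM in vehicle libraries, and 8 of the 10 fell in edgeR's test at an adjusted p under 0.05. Markers of the oligodendrocyte lineage moved the same way. The 12 OPC markers summed to 94.5 to 125 FPKM in PLX3397 libraries and 241 to 344 FPKM in vehicle libraries, with 9 lower. The genes of this list changed unequally, so its sum does not measure OPCs alone. Gpr17 averaged 10.8 FPKM in PLX3397 and 63.5 FPKM in vehicle libraries, and Bcas1 6.91 FPKM in PLX3397 and 43.6 FPKM in vehicle libraries. Pdgfra and Cspg4, the usual OPC markers, had log2 fold changes of -0.21 and -0.28 and did not pass, while Neu4 had -5.13. The 12 oligodendrocyte markers summed to 402 to 913 FPKM in PLX3397 and 1198 to 1786 FPKM in vehicle libraries, with 4 lower. The 12 neuron markers summed to 1202 to 1261 FPKM in PLX3397 libraries and 1164 to 1209 FPKM in vehicle libraries, and the 10 astrocyte markers to 581 to 629 FPKM in PLX3397 and 544 to 651 FPKM in vehicle libraries. EdgeR and limma-trend called none of either list, with 6 neuron and 2 astrocyte markers at an unadjusted p under 0.05 in edgeR's test, while DESeq2 called 3 neuron markers as higher and 1 astrocyte marker as lower. Of all genes tested, 16.2% had such an unadjusted p, and DESeq2 called 2.02% as higher and 4.47% as lower. In whole tissue, fewer cells of a type and less RNA per cell cannot be told apart. Of the tissue itself, 10 hypothalamus markers summed to 608 to 1083 FPKM in PLX3397 libraries and 706 to 1080 FPKM in vehicle libraries, and 6 telencephalon markers to no more than 3.03 FPKM in any library. The 6 thalamus markers summed to 8.57 to 10.9 FPKM in PLX3397 libraries and 11.9 to 14.8 FPKM in vehicle libraries, without overlap. The list was mixed: of the 5 tested, 3 had a negative and 2 a positive log2 fold change (Rora 0.036 and Lef1 0.14). Only 1, Prkcd, fell in edgeR's test (log2 fold change -0.54, SE 0.08, adjusted p 0.0229). The part of such tissue in the members' values was not tested. The library vehicle F1 stood apart: 6 pituitary markers summed to 3046 FPKM there and to at most 12.46 FPKM in every other library. Of the PLX3397 libraries, M2 had the lowest sums of microglia, OPC and oligodendrocyte markers, so members' results are also given without vehicle F1, or without vehicle F1 and PLX3397 M2, where that changes a call or moves a described change by over 1.5 times.

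All 34 genes were in the table, and 33 passed the filter of a mean of 0.5 FPKM. The gene left out was Grin3b, which encodes the GluN3B subunit of NMDA receptors. It stayed between 0.0773 and 0.296 FPKM in PLX3397 libraries (19 to 76 counts) and between 0.147 and 0.275 FPKM in vehicle libraries (33 to 63 counts), and 32.1% of its exonic bases overlap exons of a gene on the other strand. None of the 33 tested genes passed edgeR's quasi-likelihood test of PLX3397 against vehicle at an adjusted p of 0.05, with the adjustment over all 16894 genes tested. Across all genes the test called 52 as higher (0.308%) and 310 as lower (1.83%) in PLX3397 hypothalami. At an unadjusted p under 0.05 stood 8 members, 6 higher and 2 lower, or 24.2% of those tested, against 16.2% of all genes in either direction. Limma-trend on log2(FPKM + 0.5) called none of the members, while DESeq2 called 4: Gria2, Grm3 and Neto1 as higher and Cacng4 as lower. Across all genes DESeq2 called 342 as higher (2.02%) and 755 as lower (4.47%).

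**Figure D1:**
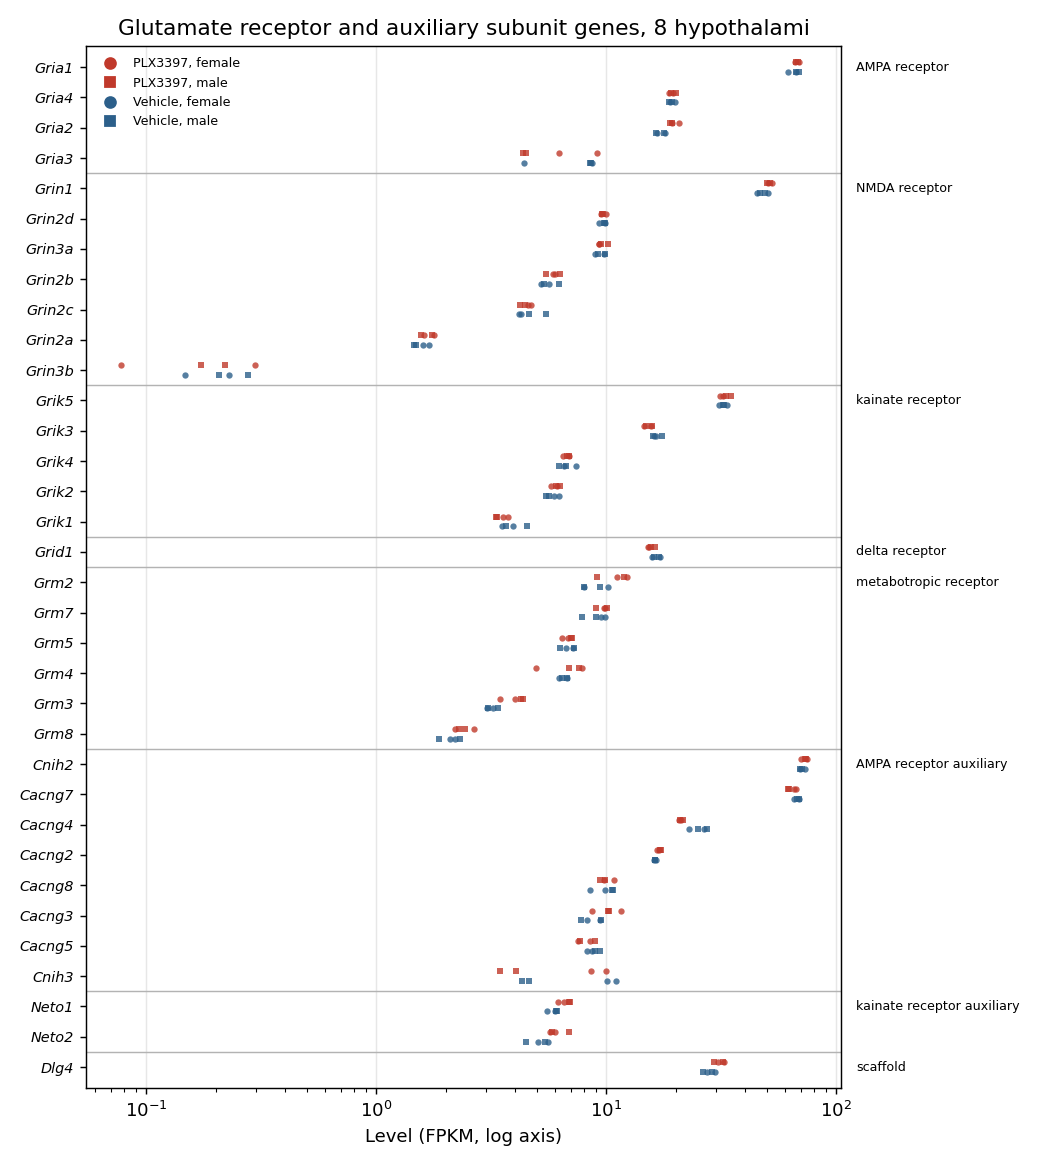
Levels in FPKM (log axis) of the 34 glutamate receptor and auxiliary subunit genes in each of the 8 libraries, grouped by class; red symbols are PLX3397 and blue symbols vehicle, circles are females and squares males. Cnih2 was highest and Grin3b lowest, and most genes stayed within a narrow band over the libraries; Cnih3, Gria3 and Grin3b spread widest.

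The changes were small on the log2 scale. Of the 33 tested genes, 24 had a positive and 9 a negative log2 fold change of PLX3397 over vehicle, with a median of 0.038, against a median of -0.0025 over all genes tested, of which 8348 were positive. The median size of the change, whatever its direction, was 0.10 for the members and 0.11 for all genes. For 31 of the 33 the 95% interval of the change lay within a 1.5-fold difference in either direction, and for 17 within a 1.2-fold difference. Without vehicle F1 and PLX3397 M2, 17 members were positive and their median log2 fold change was 0.0030, below the median of 0.0041 over all genes in that fit. All 4 PLX3397 values lay above all 4 vehicle values for 5 members (15.2%; 4.17% of all genes), and below them for 2 members (6.06%; 6.89% of all genes).

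**Figure D2:**
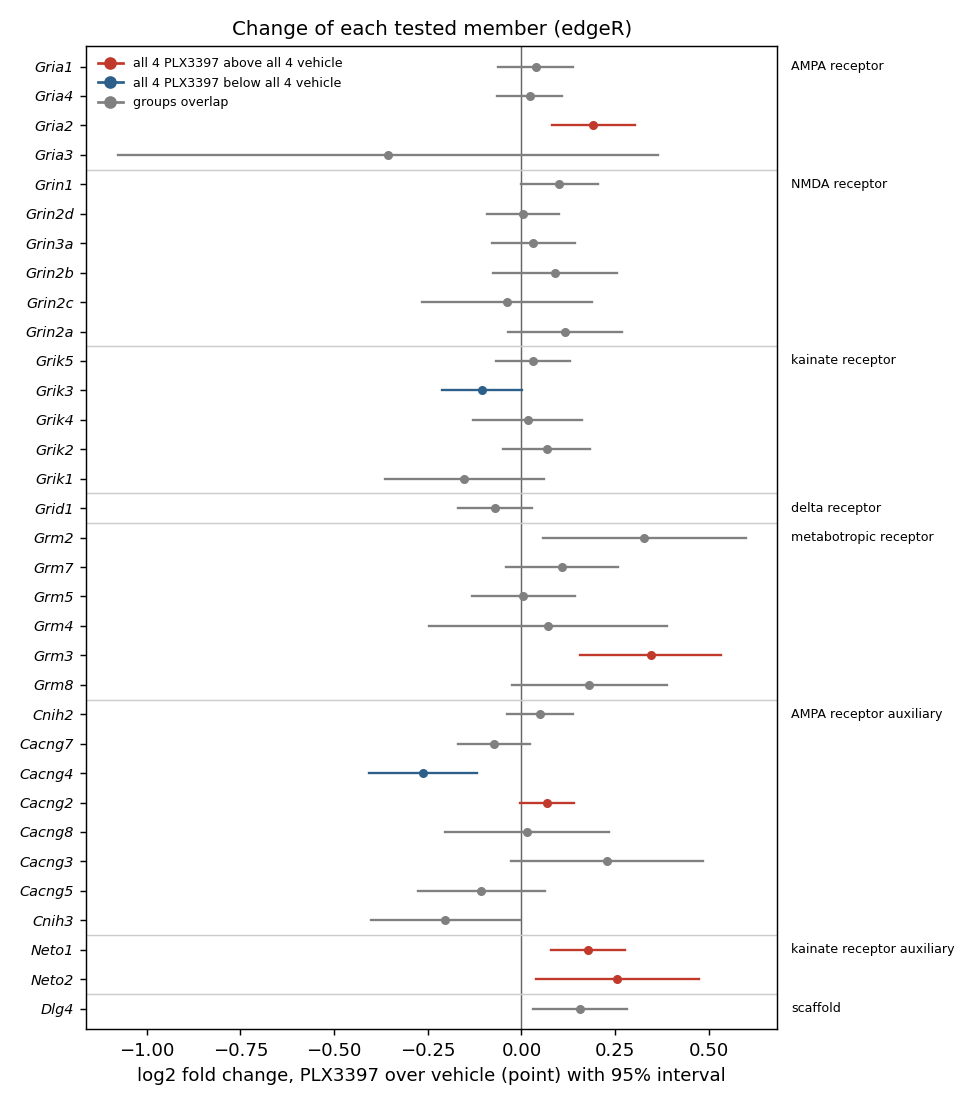
Log2 fold change of PLX3397 over vehicle for the 33 tested genes, by class, as points with 95% intervals from edgeR; red marks genes whose 4 PLX3397 values all lie above the 4 vehicle values, blue those whose PLX3397 values all lie below, and grey those whose groups overlap. Points ran between -0.36 for Gria3 and 0.35 for Grm3, and Gria3 had the widest interval.

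Promoter sequence is shown for the 4 members whose libraries separated without overlap, by treatment or by sex, and whose annotated start site lay within 10 bases of the edge of the gene in the deposited table. These are Gria2, Neto2 and Grik3, which separated by treatment, and Cnih3, which separated by sex. Each window holds the 250 bases before the start site, 5′ to 3′ on the gene's strand, from RefSeq on GRCm38.p6: chr3:80802836-80803085 (minus strand) for Gria2, chr8:85700925-85701174 (minus strand) for Neto2, chr4:125490446-125490695 (plus strand) for Grik3 and chr1:181352378-181352627 (plus strand) for Cnih3. Capitals mark GC boxes (GGGCGG, or its complement on the other strand), the letters bound by factors of the Sp family.
Gria2: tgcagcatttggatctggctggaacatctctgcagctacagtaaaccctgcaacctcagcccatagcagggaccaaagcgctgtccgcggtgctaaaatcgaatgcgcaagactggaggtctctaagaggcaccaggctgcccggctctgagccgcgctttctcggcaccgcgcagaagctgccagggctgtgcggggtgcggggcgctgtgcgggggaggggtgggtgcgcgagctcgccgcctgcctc
Neto2: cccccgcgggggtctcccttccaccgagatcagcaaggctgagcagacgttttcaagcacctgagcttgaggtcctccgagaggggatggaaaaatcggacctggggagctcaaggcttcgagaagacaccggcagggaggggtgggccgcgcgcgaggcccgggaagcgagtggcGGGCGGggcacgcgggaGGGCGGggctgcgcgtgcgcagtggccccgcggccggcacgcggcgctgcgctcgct
Grik3: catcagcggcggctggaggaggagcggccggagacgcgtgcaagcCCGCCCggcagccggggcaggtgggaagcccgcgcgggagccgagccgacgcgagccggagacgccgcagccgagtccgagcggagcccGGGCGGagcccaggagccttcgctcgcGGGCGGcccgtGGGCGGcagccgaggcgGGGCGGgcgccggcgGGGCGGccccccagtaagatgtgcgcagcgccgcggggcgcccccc
Cnih3: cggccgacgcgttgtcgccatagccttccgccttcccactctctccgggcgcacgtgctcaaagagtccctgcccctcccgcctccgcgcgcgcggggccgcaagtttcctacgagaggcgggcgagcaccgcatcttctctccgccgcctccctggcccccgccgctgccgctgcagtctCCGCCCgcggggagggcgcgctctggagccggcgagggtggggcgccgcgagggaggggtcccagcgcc
The Grik3 window is 82.0% G or C and holds 6 GC boxes, none overlapping another. The Neto2 window is 72.0% G or C and holds 2, the Cnih3 window is 76.0% G or C and holds 1, and the Gria2 window is 64.8% G or C and holds none. The same windows were searched on both strands for the cyclic AMP response element (TGACGTCA), the core of the NRF1 site (GCGCATGCG), the short element AGGTCA bound by several nuclear receptors and the TATA box (TATAAA), and these 4 windows held no such letters. Over 32851 windows of the same length the GC box was found in 32.7%, the cyclic AMP response element in 1.55%, the NRF1 core in 1.45%, the nuclear receptor element in 14.0% and the TATA box in 12.4%. RefSeq windows matched 23 of the 34 members, and 14 of these genes had a GC box in at least 1 window, 3 (Grin2c, Cacng8 and Dlg4) the nuclear receptor element, and 1 (Grin3b) the TATA box. Counted by window, as the shares above are, the GC box was in 15 of 30 member windows.

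AMPA receptors were led by Gria1, which encodes GluA1. It averaged 67.4 ± 1.27 FPKM in PLX3397 libraries and 66.1 ± 3.23 FPKM in vehicle libraries (SD, n = 4 each), which is 60.0% of the summed FPKM of the 4 AMPA receptor genes in PLX3397 and 60.1% in vehicle libraries. Gria4, encoding GluA4, averaged 19.4 ± 0.61 FPKM in PLX3397 and 19.2 ± 0.55 FPKM in vehicle libraries. The summed level of the class was 112 ± 2.70 FPKM in PLX3397 libraries and 110 ± 5.40 FPKM in vehicle libraries, and the groups overlapped.

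Gria2 encodes GluA2, the subunit whose edited form makes AMPA receptors nearly impermeable to calcium. The gene (ENSMUSG00000033981) lies at chr3:80681450-80802835 on the minus strand of mm10. It had 20.68, 19.30, 18.99 and 19.33 FPKM in PLX3397 F1, F2, M1 and M2, against 16.60, 17.99, 17.81 and 16.48 FPKM in vehicle F1, F2, M1 and M2. Every PLX3397 library was above every vehicle library. The log2 fold change was 0.19 (SE 0.05, 95% interval 0.08 to 0.30), a 1.14-fold difference, with an adjusted p of 0.101 in edgeR's test and 0.0209 in DESeq2's. As a share of the AMPA receptor sum, Gria2 made up 17.4 ± 0.72% in PLX3397 libraries and 15.7 ± 0.58% in vehicle libraries, again without overlap. Its ratio to Gria1 was 0.290 ± 0.015 in PLX3397 libraries and 0.261 ± 0.011 in vehicle libraries.

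Gria3, on the X chromosome at chrX:41400854-41676592, encodes GluA3 and varied most between libraries of a group among the AMPA receptor genes. It had 6.20, 9.08, 4.48 and 4.36 FPKM in PLX3397 F1, F2, M1 and M2, against 4.40, 8.67, 8.56 and 8.52 FPKM in vehicle F1, F2, M1 and M2. Both PLX3397 males lay below both vehicle males, while the females of the groups overlapped. Over all 8 libraries the log2 fold change was -0.36 (SE 0.31), with an adjusted p of 0.630 in edgeR's test. It was -0.65 without vehicle F1 (adjusted p 0.201) and -0.55 without vehicle F1 and PLX3397 M2 (adjusted p 0.422), and with the other libraries left out in turn it lay between -0.58, without PLX3397 F2, and -0.20, without PLX3397 M2. Within males it was -0.96 (SE 0.32) and within females 0.24 (SE 0.32). The difference between these effects, 1.199 (SE 0.45), had an unadjusted p of 0.0347 and an adjusted p of 0.82 in edgeR's test. Vehicle F1, the library with pituitary transcripts, had a level near that of the PLX3397 males, where the 6 pituitary markers summed to 8.36 and 12.46 FPKM; the part of those transcripts in the Gria3 values was not tested.

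**Figure D3:**
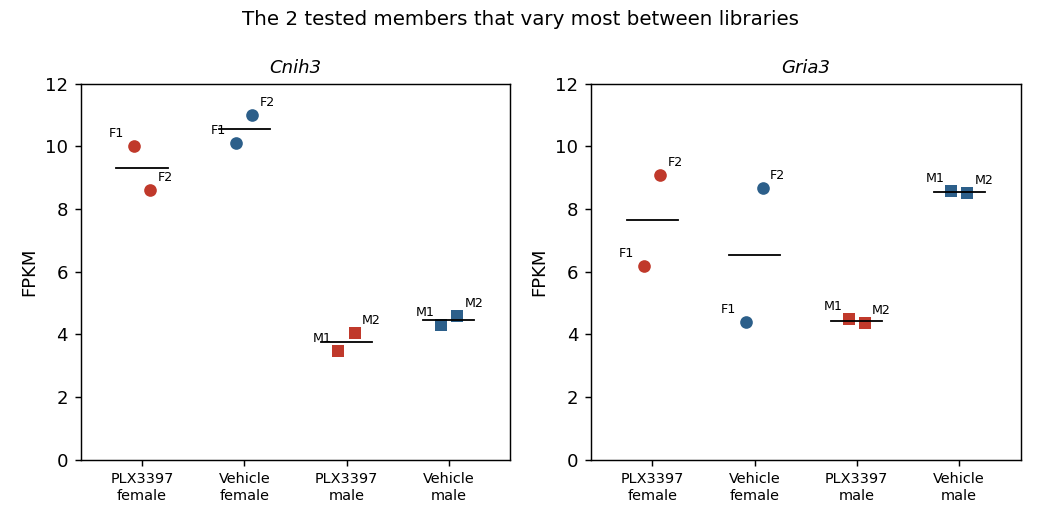
Levels in FPKM of Cnih3 and Gria3 in each library, by treatment and sex; red is PLX3397, blue is vehicle, circles are females, squares are males, and the bar is the mean of the 2 libraries. All Cnih3 values of females, 8.61 to 11.0024 FPKM, lie above those of males, 3.46 to 4.59 FPKM, while Gria3 is low in both PLX3397 males and in vehicle F1.

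NMDA receptors need the obligatory subunit GluN1, encoded by Grin1, beside GluN2 or GluN3 subunits that set their kinetics. Grin1 averaged 51.1 ± 1.12 FPKM in PLX3397 libraries and 47.9 ± 2.23 FPKM in vehicle libraries, which is 61.9% of the class sum in PLX3397 and 60.6% in vehicle libraries. Its log2 fold change was 0.10 (SE 0.04), and its adjusted p of 0.311 in edgeR's test did not pass. Without vehicle F1 the log2 fold change of Grin1 was 0.067, and without vehicle F1 and PLX3397 M2 it was 0.049. A caution on its level is that 13.5% of its exonic bases overlap the antisense gene Grin1os, and the sources used here do not say whether strand was used in counting. Of the GluN2 genes, Grin2d was highest, at 9.66 ± 0.23 FPKM in PLX3397 and 9.68 ± 0.28 FPKM in vehicle libraries. The same caution holds for Grin2d, of whose exonic bases 9.66% overlap a gene on the opposite strand. Grin2d and Grin2b encode the subunits typical of the immature brain, and Grin2a the subunit that gains ground with age. Grin2b averaged 5.91 ± 0.35 FPKM in PLX3397 and 5.59 ± 0.44 FPKM in vehicle libraries, and Grin2a 1.67 ± 0.10 FPKM in PLX3397 and 1.55 ± 0.11 FPKM in vehicle libraries. The log2 fold change was 0.089 for Grin2b and 0.12 for Grin2a over all libraries, and 0.0030 for Grin2b and 0.049 for Grin2a without vehicle F1 and PLX3397 M2. The ratio of Grin2a to Grin2b, a usual index of the developmental switch of NMDA receptors, was 0.284 ± 0.010 in PLX3397 libraries and 0.280 ± 0.031 in vehicle libraries, a difference within the spread of the libraries. Of the stretches of 50 bases of Grin2a, 11.6% also occur in transcripts of other genes, against 0.543% for Grin2b, and the part of these in the ratio was not tested. Grin3a, which encodes the GluN3A subunit of juvenile synapses, averaged 9.58 ± 0.43 FPKM in PLX3397 and 9.42 ± 0.45 FPKM in vehicle libraries.

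Grin2c encodes GluN2C, known from cerebellar granule cells and astrocytes. It averaged 4.47 ± 0.22 FPKM in PLX3397 libraries and 4.63 ± 0.59 FPKM in vehicle libraries. Beside Gria3 it was the other member with an unadjusted p under 0.05 for a treatment effect that differs by sex (0.0314, adjusted p 0.82 in edgeR's test), with a log2 fold change of 0.16 (SE 0.10) within females and -0.23 (SE 0.10) within males. These 2 of the 33 members are 6.06%, against 6.01% of all genes at such a p. No member passed the adjusted threshold in that test with edgeR, limma-trend or DESeq2, and across all genes edgeR called 13 (0.077%). The NMDA receptor genes summed to 82.6 ± 1.57 FPKM in PLX3397 libraries and 78.9 ± 2.73 FPKM in vehicle libraries, with overlap of the groups.

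Kainate receptors combine the principal subunits GluK1 to GluK3 (Grik1, Grik2 and Grik3) with the high-affinity subunits GluK4 and GluK5 (Grik4 and Grik5). Grik5 was the highest, at 32.8 ± 1.61 FPKM in PLX3397 and 32.3 ± 1.01 FPKM in vehicle libraries, which is 51.0% of the class sum in PLX3397 and 49.6% in vehicle libraries. Grik3 (chr4:125490700-125714173, plus strand) had 14.6, 15.6, 14.8 and 15.9 FPKM in PLX3397 F1, F2, M1 and M2, against 16.1, 16.4, 17.4 and 15.9 FPKM in vehicle F1, F2, M1 and M2. The groups did not overlap, but the highest PLX3397 value, 15.86 FPKM, and the lowest vehicle value, 15.95 FPKM, nearly met. Its log2 fold change was -0.11 (SE 0.05), with an adjusted p of 0.311 in edgeR's test. Grik1, Grik2 and Grik4 averaged 3.49 ± 0.18, 6.04 ± 0.22 and 6.73 ± 0.18 FPKM in PLX3397 libraries, against 3.90 ± 0.43, 5.80 ± 0.34 and 6.69 ± 0.49 FPKM in vehicle libraries, each with overlapping groups. The class summed to 64.3 ± 2.12 FPKM in PLX3397 libraries and 65.1 ± 1.84 FPKM in vehicle libraries. Grid1 encodes the delta receptor GluD1, a synaptic organiser that binds cerebellins, and averaged 15.6 ± 0.47 FPKM in PLX3397 and 16.5 ± 0.63 FPKM in vehicle libraries (log2 fold change -0.07, SE 0.04, edgeR adjusted p 0.468).

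Among the metabotropic receptors, which tune transmitter release and postsynaptic excitability, all 6 genes had a positive log2 fold change over all libraries, with a median of 0.14. The sign was not stable for Grm5 (0.0047) and Grm4 (0.071), which turned negative in 10 and 2 of 20 alternative fits. None of the 6 passed edgeR's test, with Grm2 and Grm3 at an unadjusted p under 0.05. Grm3 encodes mGlu3, a receptor of astrocytes and neurons that lowers cyclic AMP. It had 3.46, 4.02, 4.25 and 4.32 FPKM in PLX3397 F1, F2, M1 and M2, against 3.20, 3.03, 3.05 and 3.38 FPKM in vehicle F1, F2, M1 and M2. Each PLX3397 library lay above the vehicle libraries, although PLX3397 F1 was within 0.1 FPKM of vehicle M2. The log2 fold change was 0.35 (SE 0.08, 95% interval 0.16 to 0.53), or a 1.27-fold difference and the highest among the tested members. Its adjusted p was 0.0909 in edgeR's test and 0.00906 in DESeq2's, on 811 to 905 counts in PLX3397 libraries and 575 to 708 in vehicle libraries. None of its exonic bases overlap another gene. The astrocyte markers, summing to 608 ± 20.0 FPKM in PLX3397 libraries and 595 ± 44.7 FPKM in vehicle libraries, overlapped between the groups. This sum holds opposite changes: 7 of the 10 markers had a positive and 3 a negative log2 fold change, from 0.21 for Aldoc to -0.39 for Aqp4. The part of astrocyte RNA in the Grm3 values was not tested.

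Grm2 encodes mGlu2, the close relative of mGlu3 found mainly on neurons. Its values were 11.18, 12.31, 11.96 and 9.07 FPKM in PLX3397 F1, F2, M1 and M2, against 8.01, 10.2, 9.36 and 8.00 FPKM in vehicle F1, F2, M1 and M2. PLX3397 M2 lay among the vehicle values and the other 3 PLX3397 libraries lay above them. Its log2 fold change was 0.33 (SE 0.12), with an adjusted p of 0.224 in edgeR's test, and 9.60% of its exonic bases overlap a gene on the opposite strand. The presynaptic group III receptors Grm4, Grm7 and Grm8 averaged 6.84 ± 1.33, 9.68 ± 0.44 and 2.39 ± 0.20 FPKM in PLX3397 libraries, against 6.53 ± 0.28, 9.04 ± 0.90 and 2.12 ± 0.18 FPKM in vehicle libraries. PLX3397 F1, at 4.95 FPKM of Grm4, was the lowest of all libraries for that gene. Grm5, whose product mGlu5 couples to calcium release, averaged 6.84 ± 0.32 FPKM in PLX3397 and 6.85 ± 0.44 FPKM in vehicle libraries. The class summed to 40.9 ± 2.04 FPKM in PLX3397 libraries and 36.6 ± 2.41 FPKM in vehicle libraries; the lowest PLX3397 sum, 38.8 FPKM, was under the highest vehicle sum, 39.3 FPKM.

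The auxiliary subunits of AMPA receptors were expressed at levels as high as the receptor genes. Cnih2, which encodes a cornichon protein that slows channel closing, was the highest of the 34 genes, at 73.0 ± 1.91 FPKM in PLX3397 and 70.8 ± 1.80 FPKM in vehicle libraries. Cacng7, encoding the transmembrane AMPA receptor regulatory protein (TARP) gamma-7, averaged 64.0 ± 2.35 FPKM in PLX3397 and 67.6 ± 1.64 FPKM in vehicle libraries. The 8 genes of the class divided evenly in direction, 4 positive and 4 negative, with a median log2 fold change of -0.03. Their sum was 210 ± 4.97 FPKM in PLX3397 libraries and 215 ± 6.67 FPKM in vehicle libraries.

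Cacng4 encodes TARP gamma-4, which is known from immature neurons and from cells of the oligodendrocyte lineage. The gene lies at chr11:107732357-107794557 on the minus strand. It had 20.7, 21.2, 21.0 and 21.6 FPKM in PLX3397 F1, F2, M1 and M2, against 22.8, 26.6, 27.5 and 25.0 FPKM in vehicle F1, F2, M1 and M2. The PLX3397 libraries kept within 1 FPKM of each other and all lay below the vehicle libraries. The log2 fold change was -0.26 (SE 0.06, 95% interval -0.41 to -0.12), with an adjusted p of 0.0914 in edgeR's test and 0.0105 in DESeq2's. Leaving out vehicle F1, the lowest vehicle library, brought the log2 fold change to -0.31 and the adjusted p of edgeR's test to 0.0357, the only such call among the members when a library was left out, in a fit that called 225 of all genes as lower (1.33%). Without vehicle F1 and PLX3397 M2 the log2 fold change was -0.33 and the adjusted p 0.0860, and no member was called. All 12 genes listed as OPC markers had a negative log2 fold change, and in 11 every PLX3397 value was below every vehicle value. Their changes were unequal, with Neu4 nearest to 0 in the PLX3397 libraries at 0.0462 to 0.397 FPKM against 5.59 to 6.27 FPKM in vehicle libraries. Pdgfra and Cspg4, the usual markers of OPCs, were at 8.05 to 9.45 and 2.50 to 3.06 FPKM in PLX3397 libraries, against 9.47 to 11.2 and 3.10 to 3.82 FPKM in vehicle libraries, and neither passed the test. The part of the oligodendrocyte lineage in the Cacng4 values was not tested.

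Cacng2 encodes stargazin, or TARP gamma-2, the founding member of the family. It had 16.7, 17.0, 17.2 and 17.1 FPKM in PLX3397 F1, F2, M1 and M2, against 16.1, 16.5, 16.3 and 16.3 FPKM in vehicle F1, F2, M1 and M2. The groups did not overlap, but the difference was among the smaller ones, with a log2 fold change of 0.07 (SE 0.03) and an adjusted p of 0.338 in edgeR's test. Cacng3 and Cacng8, encoding TARP gamma-3 and gamma-8, averaged 10.1 ± 1.18 and 9.96 ± 0.63 FPKM in PLX3397 libraries, against 8.70 ± 0.85 and 9.92 ± 0.997 FPKM in vehicle libraries. Cacng5, for the type II TARP gamma-5, averaged 8.15 ± 0.67 FPKM in PLX3397 and 8.83 ± 0.48 FPKM in vehicle libraries. The groups overlapped for all 3 genes.

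Neto1 and Neto2 encode the auxiliary subunits of kainate receptors, and both were higher in every PLX3397 library than in any vehicle library. Neto1 (chr18:86394952-86506718, plus strand) had 6.17, 6.52, 6.98 and 6.87 FPKM in PLX3397 F1, F2, M1 and M2, against 5.96, 5.51, 6.02 and 6.11 FPKM in vehicle F1, F2, M1 and M2. Its log2 fold change was 0.18 (SE 0.04, 95% interval 0.08 to 0.28), with an adjusted p of 0.0962 in edgeR's test and 0.0111 in DESeq2's. Neto2 (chr8:85636588-85700924, minus strand) had 6.005, 5.68, 5.81 and 6.87 FPKM in PLX3397 F1, F2, M1 and M2, against 5.57, 5.03, 4.47 and 5.41 FPKM in vehicle F1, F2, M1 and M2. Its log2 fold change was 0.26 (SE 0.09), with an adjusted p of 0.233 in edgeR's test, and PLX3397 M2 and vehicle M1 were the extremes. Together the pair summed to 12.7 ± 0.74 FPKM in PLX3397 libraries and 11.02 ± 0.59 FPKM in vehicle libraries, the only one of the classes with more than 1 gene whose sums did not overlap.

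Dlg4 encodes PSD-95, the scaffold that anchors AMPA receptors through the TARPs and NMDA receptors directly. It had 30.5, 32.5, 29.3 and 32.3 FPKM in PLX3397 F1, F2, M1 and M2, against 27.4, 29.8, 26.3 and 28.8 FPKM in vehicle F1, F2, M1 and M2. PLX3397 M1 lay below vehicle F2 and the other PLX3397 libraries lay above all vehicle libraries. Dlg4 had a log2 fold change of 0.16 (SE 0.05), with an adjusted p of 0.217 in edgeR's test, and the change was 0.085 without vehicle F1 and PLX3397 M2. Of the 12 neuron markers, 5 were higher in every PLX3397 library than in any vehicle library (4.17% of all genes were) and none lower in every one. The log2 fold change was positive for 8 and negative for 4: the inhibitory neuron genes Slc32a1 (-0.21, unadjusted p 0.0182 in edgeR's test), Gad2 (-0.17) and Gad1 (-0.051), and Tubb3 (-0.0049). The summed level of the list averaged 1232 ± 32.3 FPKM in PLX3397 libraries and 1190 ± 22.1 FPKM in vehicle libraries; the part of neuronal RNA in the members with higher values was not tested.

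**Figure D4:**
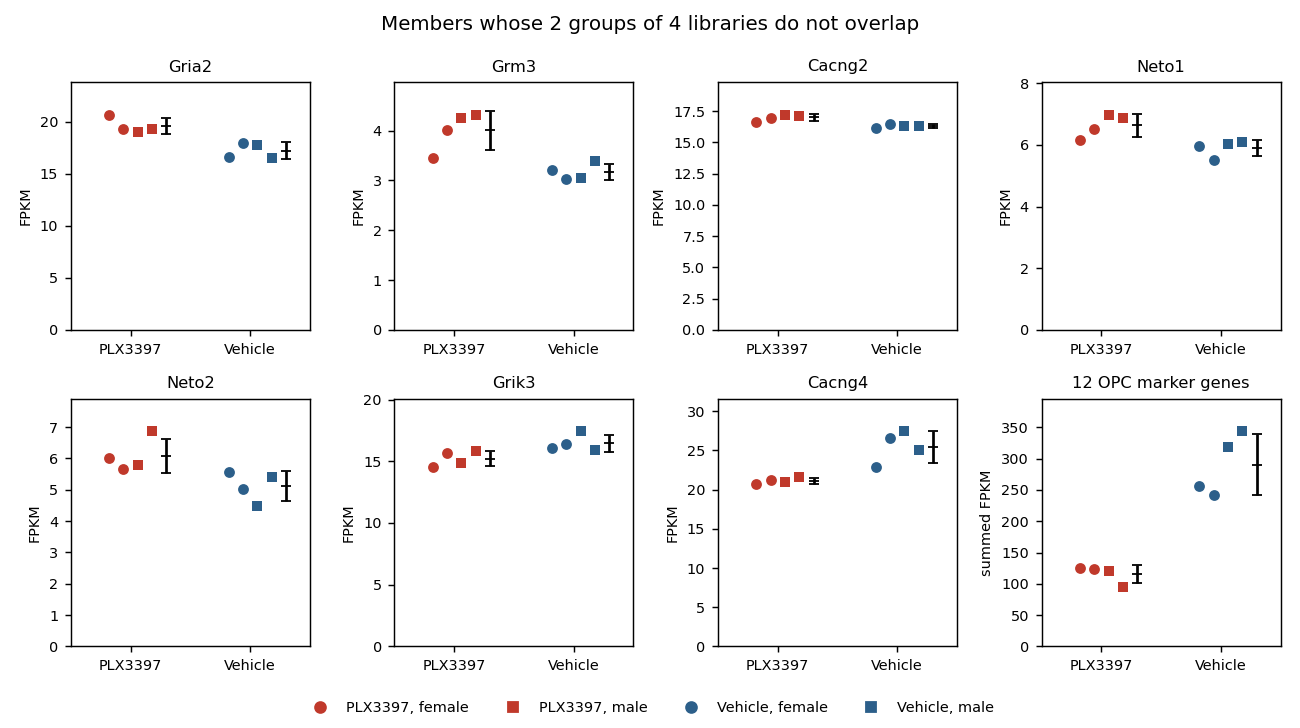
Levels in FPKM of the 7 members whose PLX3397 and vehicle values do not overlap, and the summed FPKM of the 12 OPC marker genes; points are libraries (red PLX3397, blue vehicle, circles females, squares males) and the black bar is the mean ± SD of 4 libraries. Gria2, Grm3, Cacng2, Neto1 and Neto2 are higher and Grik3 and Cacng4 lower in PLX3397 libraries, and the OPC sum is 116 ± 14.5 FPKM in PLX3397 and 290 ± 49.1 FPKM in vehicle libraries. Of the genes in that sum, Pdgfra and Cspg4, the usual OPC markers, did not pass edgeR's test, and the sum does not measure OPCs alone.

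Cnih3, the second cornichon gene of the list, was the only member whose level separated by sex. The gene (ENSMUSG00000026514) lies at chr1:181352628-181460641 on the plus strand. Females had 9.99 and 8.61 FPKM in the PLX3397 group and 10.09 and 11.0024 FPKM in the vehicle group, against 3.46 and 4.05 FPKM in PLX3397 males and 4.30 and 4.59 FPKM in vehicle males. Every female lay above every male in both treatments. The mean was 9.93 ± 0.99 FPKM in females and 4.10 ± 0.48 FPKM in males (SD, n = 4 each). The log2 fold change of female over male was 1.28 (SE 0.09, 95% interval 1.08 to 1.48), a 2.42-fold difference, with an adjusted p of 0.00176 in edgeR's test. It passed in each alternative fit of this comparison, with log2 fold changes of 1.10 to 1.38.

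In that comparison edgeR called 10 of all genes tested (0.0592%), of which 3 lie on the X chromosome, 5 on the Y chromosome and 2 on autosomes, the autosomal ones being Cnih3 and Lrrc61 (Lrrc61, no member of the list, was named after its values were seen). Groups of females and males did not overlap for 1 member (3.03%) and for 2.41% of all genes. Gaps between the levels of libraries were also counted over all genes. Of 14475 genes with a mean of at least 1 FPKM, 685 (4.73%) had a gap of at least 1.5-fold with 2 or more libraries on either side, and this gap ran between the sexes for 8 genes, 5 of them on the X or Y chromosome, between the treatments for 76 and along neither for 601. The gap of Cnih3 was 1.87-fold. No exonic base of Cnih3 overlaps another annotated gene, and none of its 2843 stretches of 50 bases occurs in another transcript. Against vehicle, Cnih3 had a log2 fold change of -0.20 in PLX3397 libraries (SE 0.08, edgeR adjusted p 0.297), -0.16 (SE 0.13) within females and -0.25 (SE 0.13) within males.

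Genes that work with the receptors were taken from 3 further lists. Of 13 genes for the release, uptake and synthesis of glutamate, 12 were tested, and 1 rose and 1 fell in edgeR's test (0.308% of all genes were called higher and 1.83% lower). Glul, encoding glutamine synthetase, the enzyme by which astrocytes convert glutamate, rose to 279 ± 18.3 FPKM in PLX3397 libraries, against 232 ± 8.87 FPKM in vehicle libraries (log2 fold change 0.27, SE 0.05, edgeR adjusted p 0.0316). Slc1a1, encoding the neuronal glutamate transporter EAAC1, fell to 9.19 ± 0.13 FPKM in PLX3397 libraries, against 10.8 ± 0.39 FPKM in vehicle libraries (log2 fold change -0.23, SE 0.03, edgeR adjusted p 0.0225). Both calls were lost in 7 of the 8 fits that left out a library, and without vehicle F1 and PLX3397 M2 the adjusted p of each was 0.174. The log2 fold changes over all alternatives ran between 0.22 and 0.32 for Glul and between -0.24 and -0.20 for Slc1a1. DESeq2 called these genes and, as higher, Slc17a6, where it called 2.02% of all genes as higher and 4.47% as lower. The gene not tested was Slc17a7, for the vesicular transporter VGLUT1, at 0.115 to 0.194 FPKM in PLX3397 libraries and 0.309 to 0.826 FPKM in vehicle libraries.

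Of 16 other genes associated with AMPA receptors, all tested, 1 rose and none fell in edgeR's test (0.308% of all genes were called higher and 1.83% lower). This was Nsf, whose product binds GluA2 and drives membrane fusion, at 80.0 ± 1.55 FPKM in PLX3397 libraries and 73.0 ± 1.19 FPKM in vehicle libraries (log2 fold change 0.14, SE 0.02, edgeR adjusted p 0.0334). Limma-trend called none of the list, and DESeq2 called Nsf and Shisa7 as higher, as it did 2.02% of all genes. The edgeR call of Nsf was lost whichever library was left out, with log2 fold changes of 0.13 to 0.15 over all alternatives. Of 22 further genes of the postsynaptic density none passed edgeR's test, with 5 at an unadjusted p under 0.05, 4 higher and 1 lower (16.2% of all genes in either direction). Limma-trend called none. DESeq2 called Homer1 as higher and Shank1 as lower, where it called 2.02% of all genes as higher and 4.47% as lower. The smallest p belonged to Homer1, a scaffold of group I metabotropic receptors, at 1.96 ± 0.19 FPKM in PLX3397 and 1.59 ± 0.16 FPKM in vehicle libraries (edgeR adjusted p 0.158). Next was Shank1, another scaffold, at 16.5 ± 0.66 FPKM in PLX3397 and 21.5 ± 3.37 FPKM in vehicle libraries (edgeR adjusted p 0.159). The median log2 fold changes of the 3 lists were 0.04, 0.08 and -0.01.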

How the data were processed

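RNA sequencing data of 8 mouse hypothalami (4 PLX3397, 4 vehicle) were taken from the deposited table, which gives a whole-number count for each gene and the FPKM that the authors derived, as the file headers show. A count of 0 is listed there at 0.0001 FPKM. HISAT2, StringTie, DESeq2, limma, bcl2fastq 2.0 and the build mm10 appear in the submitters' processing notes without roles. The counting tool and its strand setting are not stated there.

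PLX3397 was compared with vehicle on the deposited counts with edgeR 4.0.16 in R 4.3.3, by its two-sided quasi-likelihood test, with TMM scaling and sex as a covariate, over the 16894 genes with a mean of at least 0.5 FPKM. P-values were adjusted by Benjamini-Hochberg over all of them (threshold 0.05). The effect by sex came from a model of 4 groups, and the female against male comparison had treatment as its covariate. A standard error (SE) is the size of the log2 fold change over the root of its F value. The 95% intervals use the total degrees of freedom of the test, prior and residual together. Alternatives were limma-trend (limma 3.58.1) on log2 FPKM with other pseudocounts, DESeq2 1.42.0, other scalings and filters, the replicate label as a block, and leaving out libraries.

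The 34 members, the gene lists and the tests were chosen with earlier results of these data known. All members are named; of the 3 further lists, the called genes, or otherwise the 2 with the smallest p. Values per library are given for members whose groups did not overlap and, chosen after their values were seen, for Gria3, Grm2, Dlg4 and Cnih3. Slc17a6, Slc17a7, Shisa7 and single markers were likewise named after their values were seen. Same-numbered libraries of the 2 groups deviated together only weakly, and they were not treated as pairs. Their correlations were all positive, 0.01 to 0.07, against -0.06 to 0.06 for the other pairs across the groups. Within a group, all pairs of libraries differed by more than sampling noise. The design text speaks of 8 hypothalami, taken here as separate animals. Coordinates are those of the deposited table, and exon overlaps come from GENCODE vM21, where 26 of the 34 members have the same coordinates. The fitting code was tested on simulated data.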

Additional observations from a re-analysis of the deposited data

Results flagged for a closer look

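Among 66 groups of 4 libraries (33 genes in each treatment group), 1 held a library far from the other 3: Gria3 in vehicle F1, at 4.40 FPKM, while the other vehicle libraries lay between 8.52 and 8.67 FPKM. The gap to the nearest library was 0.964 of the range, above Dixon's 95% limit for 4 samples. Chance alone passes this limit in about 1 of 20 groups. That rate belongs to the limit and not to a gap of this size, and the cause of the gap was not tested. Gria3 was as low in PLX3397 M1 (4.48 FPKM) and M2 (4.36 FPKM), and vehicle F1 is also the library with pituitary transcripts, whose part was not tested.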

How the results depend on the processing

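Of the log2 fold changes of the 33 tested members and of the sex difference of Cnih3, 642 values under alternative settings kept their direction and their side of the threshold, 5 kept their direction and came under it, and 31 turned in sign, all of them of genes with a small change. Without vehicle F1 and PLX3397 M2 the log2 fold change was -0.0073 for Gria1, -0.030 for Grin3a, -0.039 for Grik4, -0.024 for Grik5, -0.0026 for Grm4, -0.028 for Grm5 and -0.060 for Cacng8. Under total counts, limma-trend with pseudocounts of 0.5, 0.1 and 1, and a mean of at least 1 FPKM, Grin2d had -0.0064, -0.0031, -0.0032, -0.0029 and -0.0015, and Grm5 -0.0060, -0.0011, -0.0011, -0.0011 and -0.0012. With each library left out in turn, the ranges were -0.084 to 0.053 for Grin2c, -0.019 to 0.020 for Grin2d, -0.011 to 0.069 for Grik4, -0.059 to 0.200 for Grm4, -0.043 to 0.039 for Grm5 and -0.061 to 0.070 for Cacng8. The cause was not tested. Genes called between treatments numbered 362, and 1097 with DESeq2, 79 with the replicate block, 123 without vehicle F1 and PLX3397 M2, and 138 to 361 with a library left out. Members called numbered 0, and 4 with DESeq2, 0 with the replicate block, 0 to 1 with a library left out and 0 without vehicle F1 and PLX3397 M2. In that last fit the log2 fold changes of Grid1, Cacng5 and Cnih2 were -0.12, -0.19 and 0.021, against -0.071, -0.11 and 0.051 over all libraries. The effect by sex gave 13 genes, 143 with DESeq2 and 0 to 19 with a library left out, and the sexes differed in 10 genes, or 52 with DESeq2. The replicate labels share only a number. Counting depth limits Grin3b, at 19 to 76 counts a library.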
